A study of Mus musculus with 6 samples.

Results

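Notch signaling was followed in mouse colorectal cancer organoids through 10 genes: the receptors Notch1, Notch2 and Notch3, the ligands Dll1, Dll4, Jag1 and Jag2, the pathway targets Hes1 and Nrarp, and the receptor-modifying enzyme Lfng. The genes were chosen by name, by looking up their Ensembl identifiers in the table of raw counts, and all 10 were present among its 24190 genes and among the 14692 genes with enough reads to be tested. The organoids were of the line MTO54, described as AKP, which was established from a primary tumor of a genetically engineered mouse, and all 6 samples carried this genotype. The 3 treated samples were exposed for 2 days to Folfiri, here a mixture of 5FU (50 µg/µl) and SN38 (100 nM), starting 2 days after the organoids had been plated from dissociated cells in a matrix gel. The 3 control samples received a change of stem cell medium without drug at the same time. SN38 is the active form of the topoisomerase I inhibitor irinotecan, and 5FU is a pyrimidine analog. The length of treatment is that of the labels and the methods, and a legend of the study names a longer one. The comparison asks what chemotherapy did to the RNA of these tumor cells. It rests on 1 tumor line and 1 time point, and although the study calls the replicates biological, neither it nor the labels say whether they came from separate cultures, so the p-values measure only the spread between these samples.

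Notch receptors are single-pass proteins that bind Delta-like (Dll) or Jagged (Jag) ligands on a neighboring cell. Binding exposes the receptor to cleavage by ADAM proteases and then by the γ-secretase complex, and the released intracellular domain joins the DNA-binding protein Rbpj and a Mastermind-like coactivator to switch on target genes such as Hes1. In the intestinal epithelium, Notch keeps crypt progenitors dividing and holds back the secretory lineage, because Hes1 represses the secretory factor Atoh1. Lfng adds a sugar to fucose residues on the receptor and changes which ligands it answers to, and Nrarp, itself a Notch target, dampens the signal.

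The libraries held 22103591 to 30098210 counts, and levels are given as CPM, the reads of a gene relative to all reads assigned to genes in that library, after TMM scaling, which corrects for differences in library composition. Epithelial markers, among them Epcam, Cdh1 and Krt8, summed to 5730 to 6637 CPM in the controls and to 4645 to 4817 CPM after Folfiri. They did not all move alike. Of the 7 markers, 4 were lower, among them Cdx2 (log2 fold change -1.53) and Epcam (-0.94). Cdh1 was higher (0.21), and Krt18 and Vil1 did not pass the threshold given below. The immune markers summed to 0.51 to 0.61 CPM in the controls and to 1.305 to 1.51 CPM after Folfiri. The fibroblast markers summed to 1.08 to 1.44 CPM in the controls and to 2.03 to 2.45 CPM after Folfiri. Of their tested markers, Ptprc, Dcn and Pdgfra were higher and Col1a1 was lower. Control replicate 1 stood apart from the other controls: its counts differed from theirs by 25.3 and 23.9 chi-square units per degree of freedom, against 4.03 between control replicates 2 and 3. Among the 10 Notch genes it was the highest of the controls for 5 and the lowest for 5. Folfiri replicate 3 stood apart less, at 13.3 and 12.8 units from the other treated samples, which were 3.76 units from each other.

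After Folfiri, 6 of the 10 genes were higher (Notch1, Notch2, Dll1, Jag1, Jag2 and Nrarp), 3 were lower (Notch3, Dll4 and Lfng), and Hes1 did not pass the threshold of 0.05 on the adjusted p-value of edgeR's quasi-likelihood test. The treatment changed most of the transcriptome: 79.1% of all tested genes passed that threshold, 40.3% as higher and 38.8% as lower. The corresponding share of the Notch genes was 90.0%. The groups did not overlap for 9 of the 10 genes, and for 81.4% of all tested genes. Notch1, Notch3, Dll1 and Dll4 passed the threshold with a log2 fold change of 1 or more in either direction, as did 36.3% of all tested genes. The median log2 fold change was 0.51 over the 10 genes and 0.02 over all tested genes. In bulk RNA, fewer cells of a type and less RNA per cell cannot be told apart.

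**Figure D1:**
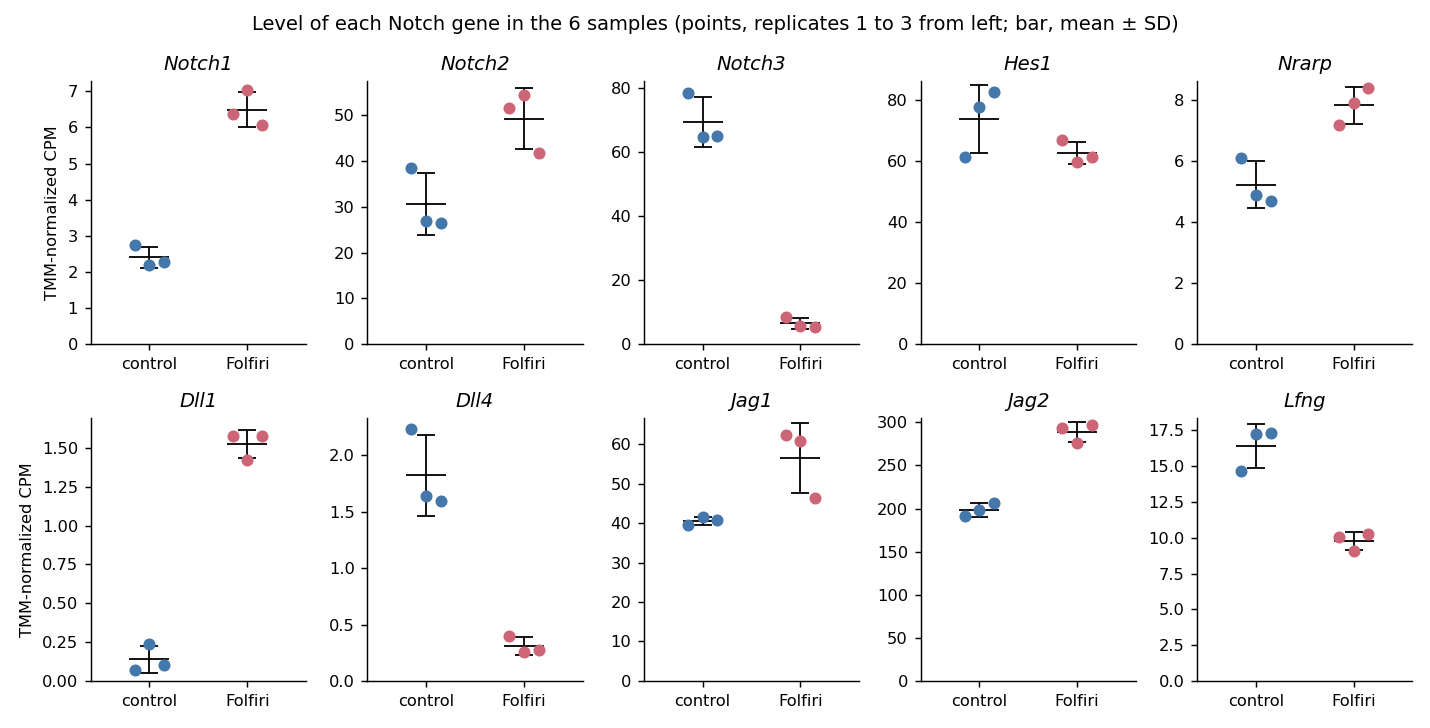
TMM-normalized CPM of the 10 Notch genes (y axes, each from 0) in the 3 control and 3 Folfiri samples (x axes). Points are samples, replicates 1 to 3 from left to right, and bars are the mean ± SD. The groups are separate for every gene except Hes1, where control replicate 1 lies among the treated samples.

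The upstream sequences of the 3 genes below are shown because Lfng and Nrarp are both often read as Notch targets and moved in opposite directions, and because Notch1 alone, among the genes with a promoter entry, held the TEAD motif, TEAD being the DNA-binding partner of YAP. They are the 250 bases before the RefSeq transcription start (build GRCm38.p6), read 5′ to 3′ on the strand of the gene. Capitals mark TGGGAA, the core bound by Rbpj, GGAATG, the core bound by TEAD factors, and CACGTG, the E box, each searched on both strands.

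Lfng, chr5:140607091-140607340, + strand: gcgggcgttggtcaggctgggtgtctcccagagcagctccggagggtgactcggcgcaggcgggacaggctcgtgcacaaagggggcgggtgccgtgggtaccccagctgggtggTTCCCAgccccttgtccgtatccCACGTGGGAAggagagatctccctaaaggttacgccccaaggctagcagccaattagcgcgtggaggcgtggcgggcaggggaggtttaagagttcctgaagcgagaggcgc

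Nrarp, chr2:25180508-25180757, + strand: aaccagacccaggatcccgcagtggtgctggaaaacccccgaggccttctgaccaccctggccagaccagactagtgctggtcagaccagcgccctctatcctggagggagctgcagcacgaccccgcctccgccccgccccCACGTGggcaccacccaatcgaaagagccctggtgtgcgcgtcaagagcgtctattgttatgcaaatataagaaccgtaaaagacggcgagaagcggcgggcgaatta

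Notch1, chr2:26503823-26504072, - strand: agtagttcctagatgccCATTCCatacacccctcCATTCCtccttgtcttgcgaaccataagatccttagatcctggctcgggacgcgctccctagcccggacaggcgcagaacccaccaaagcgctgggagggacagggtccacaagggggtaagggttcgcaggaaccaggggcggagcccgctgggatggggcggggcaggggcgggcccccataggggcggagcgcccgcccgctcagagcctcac

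Promoter entries were found for 9 of the 10 genes, all except Hes1. Of these, Lfng held TGGGAA, at 2 places whose first bases lay 135 and 108 bases before the start, and the nearer match overlapped an E box at 112. Nrarp held an E box at 108 and neither of the other motifs. The upstream sequence of Notch1 held GGAATG on the opposite strand at 233 and 216, and belongs to a RefSeq start 12841 bases inside the outermost start in GENCODE. The starts used for Jag2 and Jag1 also lay inside, by 281 and 124 bases. The windows searched for Jag2 and Jag1 thus lay wholly and partly within the gene. Across 32841 mouse promoters, 21.6% held TGGGAA, 12.6% held GGAATG and 6.02% held CACGTG in the same window. Such matches describe letters and not bound sites.

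Among the receptors, the change was an exchange of the dominant transcript. Notch3 (ENSMUSG00000038146, chr17:32120820-32166852, - strand) was at 78.6, 64.8 and 65.05 CPM in control replicates 1, 2 and 3, and at 8.38, 5.84 and 5.31 CPM in Folfiri replicates 1, 2 and 3. The lowest control was thus far above the highest treated sample. The log2 fold change was -3.42 (SE 0.16), a 10.7-fold lower level after treatment (edgeR adjusted p = 2.42e-08), and 2.69% of tested genes had a larger absolute change.

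Notch1 and Notch2, the receptors best known in normal crypts, moved the other way. For Notch1 (ENSMUSG00000026923, chr2:26457903-26516663, - strand), the controls stood at 2.74, 2.20 and 2.26 CPM and the treated samples at 6.37, 7.04 and 6.07 CPM. It rose 2.69-fold (log2 fold change 1.43, SE 0.15, edgeR adjusted p = 6.72e-06), and its replicates were close together in both groups. For Notch2 (ENSMUSG00000027878, chr3:98013527-98150361, + strand), the controls stood at 38.5, 26.8 and 26.5 CPM and the treated samples at 51.6, 54.4 and 41.8 CPM. Control replicate 1 was the high control and Folfiri replicate 3 the low treated sample, with a gap of only a few CPM between them. The rise was 1.61-fold (log2 fold change 0.68, SE 0.15, edgeR adjusted p = 0.00151), and without control replicate 1 the log2 fold change was 0.89.

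To compare receptors with each other, CPM was divided by the exonic length of each gene. Notch3 went from 8.59 ± 0.98 to 0.80 ± 0.20 CPM per kb (mean ± SD, n = 3 each), Notch2 from 2.84 ± 0.63 to 4.57 ± 0.61, and Notch1 from 0.17 ± 0.02 to 0.46 ± 0.03. The sum of the 3 receptors fell from 11.6 ± 1.63 to 5.83 ± 0.75 CPM per kb, with no overlap between 10.7 in the lowest control and 6.27 in the highest treated sample. Notch3 made up 72.1%, 75.2% and 75.5% of this sum in the control replicates, and 16.5%, 11.5% and 13.2% in the Folfiri replicates. Notch2 took its place, at 26.5%, 23.4% and 23.1% in the controls and 76.3%, 80.6% and 78.2% after treatment. Notch1 remained the smallest share, at 1.46% ± 0.03 in the controls and 7.87% ± 0.73 after Folfiri. These shares are descriptions and were not tested. Notch4, a receptor outside the set, is described with the other pathway genes, and counting it changed the shares as given in the closing section.

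**Figure D2:**
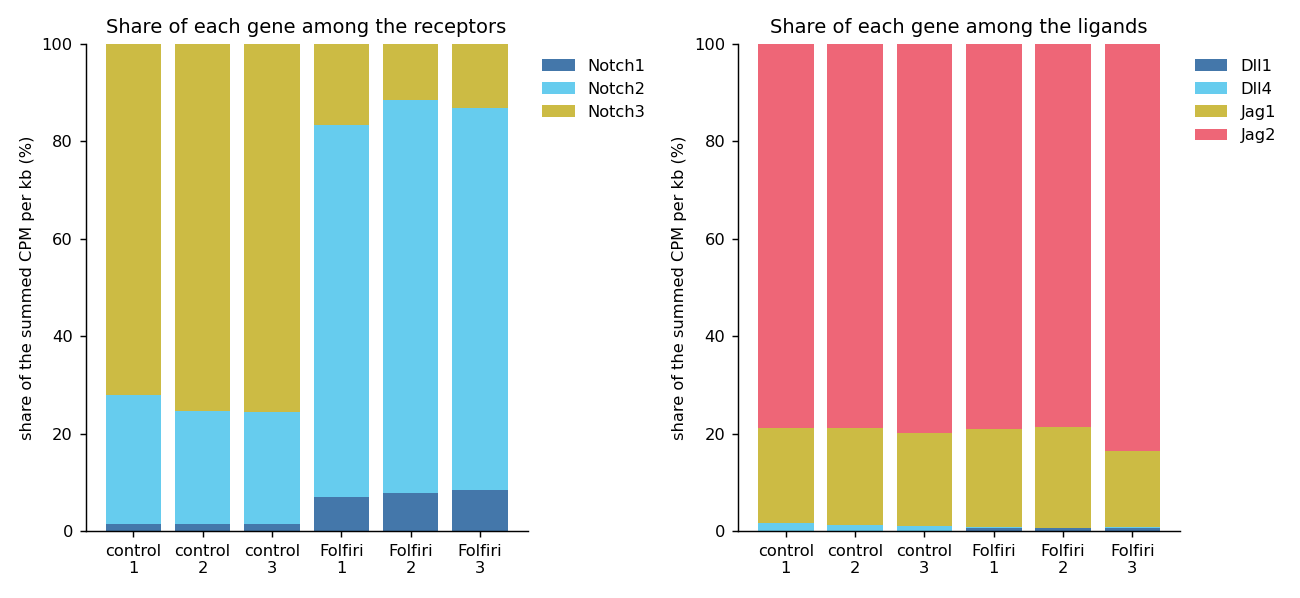
Share of each gene in the summed CPM per kb (y axis, percent) of the 3 receptors, left, and of the 4 ligands, right, in each of the 6 samples (x axis). Notch3 is the main receptor transcript in every control and Notch2 in every Folfiri sample, while Jag2 is the main ligand transcript in all 6.

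The ligand transcripts were mostly Jagged in both groups. Jag2 (ENSMUSG00000002799, chr12:112907819-112929776, - strand) was at 191, 197.8 and 206.2 CPM in the controls and 293.1, 275.7 and 296.8 CPM after Folfiri, so that all treated samples were well above all controls. It rose 1.46-fold (log2 fold change 0.54, SE 0.07, edgeR adjusted p = 3.50e-05). Jag1 (ENSMUSG00000027276, chr2:137081456-137116644, - strand) was nearly the same in the controls, at 39.5, 41.6 and 40.8 CPM, and more spread after treatment, at 62.5, 60.9 and 46.4 CPM. Folfiri replicate 3 was the low treated sample for Jag1 and still above every control. The rise was 1.39-fold (log2 fold change 0.48, SE 0.11, edgeR adjusted p = 0.00214).

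The Delta-like ligands, which in the normal crypt are presented to stem cells by their secretory neighbors, were scarce and changed in opposite directions. Dll1 (ENSMUSG00000014773, chr17:15367354-15376872, - strand) had 2, 6 and 2 reads in the control replicates and 47, 44 and 52 in the Folfiri replicates, or 0.0720, 0.240 and 0.103 CPM against 1.58, 1.42 and 1.58 CPM. It was close to the detection limit in every control and uniform after treatment. The log2 fold change was 3.42 (SE 0.35, edgeR adjusted p = 5.21e-06), and the pooled reads, 10 and 143, gave a ratio of 11.01 with an exact 95% interval of 5.82 to 23.5 that covers counting error only. Without control replicate 2, which held 6 of the 10 control reads, the log2 fold change was 4.09.

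Dll4 (ENSMUSG00000027314, chr2:119325784-119335962, + strand) had 62, 41 and 31 reads in the controls, which is 2.23, 1.64 and 1.59 CPM, and 12, 8 and 9 reads after Folfiri, which is 0.402, 0.258 and 0.273 CPM. Every control was several-fold above every treated sample. The log2 fold change was -2.56 (SE 0.28, edgeR adjusted p = 8.24e-06), and the pooled reads, 134 and 29, gave a 6.00-fold lower level with an exact 95% counting interval of 3.99 to 9.30. Dll4 shares exonic bases with Gm14207 on the opposite strand, which itself had 7, 14 and 6 reads in the controls and 1, 0 and 2 after treatment. The library kit does not mark strand, so reads from the shared bases cannot be told apart.

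Per length, the 4 ligands summed to 35.9 ± 1.13 CPM per kb in the controls and 51.5 ± 1.52 CPM per kb after Folfiri (mean ± SD, n = 3 each). The ligand sum thus rose while the receptor sum fell. Jag2 contributed 79.2% ± 0.63 of the ligand sum in the controls and 80.3% ± 2.78 after Folfiri, and Jag1 19.4% ± 0.46 and 18.8% ± 2.80, shifts that lay within 1 SD of the treated samples. Dll4 went from 1.32% to 0.16% of the sum and Dll1 from 0.09% to 0.70%, so that Dll4 was the more abundant of both in every control and Dll1 in every treated sample.

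Hes1 (ENSMUSG00000022528, chr16:30064384-30067796, + strand), a repressor that is widely used as a readout of Notch activity, was at 61.4, 77.7 and 82.5 CPM in the controls and at 66.9, 59.8 and 61.35 CPM after Folfiri. The groups overlapped, because control replicate 1 was below Folfiri replicate 1. The log2 fold change was -0.24 (SE 0.11, 95% interval -0.47 to 0.0019, edgeR adjusted p = 0.0640), an interval that leaves out any rise or fall as large as those of Notch1 or Notch3. The call depended on a single library: without control replicate 1 the log2 fold change was -0.35 (edgeR adjusted p = 0.000378). It also depended on the scaling, since with total counts alone the sign turned, to 0.05 (edgeR adjusted p = 0.650). Over 13 alternatives, Hes1 passed the threshold in 2, with adjusted p-values from 0.000378 to 0.650.

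Nrarp (ENSMUSG00000078202, chr2:25180758-25183339, + strand) was at 6.09, 4.88 and 4.68 CPM in the controls and at 7.18, 7.88 and 8.37 CPM after Folfiri. Control replicate 1 was the nearest to the treated group without reaching it. The gene rose 1.49-fold (log2 fold change 0.57, SE 0.14, edgeR adjusted p = 0.00294). Of its 2582 exonic bases, 2051 are shared with Gm38287 on the opposite strand, and without strand the reads of both cannot be told apart. Gm38287 was not analysed here, and the level of Nrarp per exonic length carries the same limit. Bases shared with genes on the opposite strand were 1482 of 14232 for Notch1, 867 of 4219 for Dll1, 488 of 8089 for Notch3 and 214 of 3852 for Dll4. Notch2 shared 541 of 10782 with Gm42820 on its own strand, and Jag1, Jag2, Hes1 and Lfng had none.

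Lfng (ENSMUSG00000029570, chr5:140607320-140615545, + strand) was at 14.7, 17.3 and 17.3 CPM in the controls and at 10.03, 9.10 and 10.3 CPM after Folfiri. The treated samples were tightly grouped below the lowest control, which was again replicate 1. Lfng fell 1.67-fold (log2 fold change -0.74, SE 0.11, edgeR adjusted p = 9.48e-05). Hes1, Nrarp and Lfng, all 3 often read as Notch targets, thus did not move together: Nrarp rose, Lfng fell and Hes1 did not pass.

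**Figure D3:**
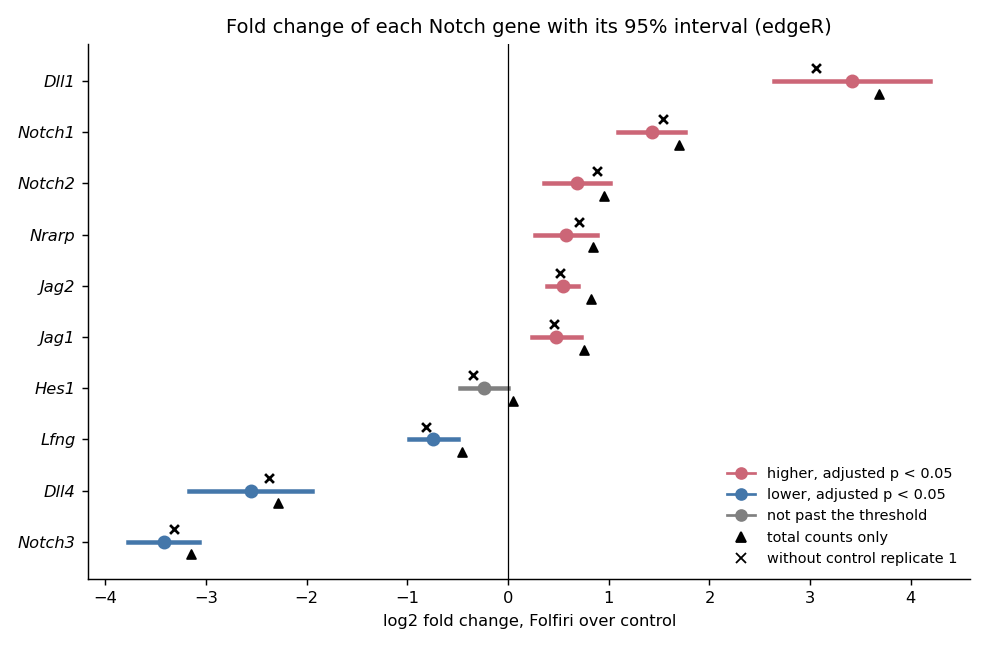
Log2 fold change of each Notch gene, Folfiri over control (x axis), with its 95% interval from edgeR, and the same value with total-count scaling (triangles) and without control replicate 1 (crosses). Of the 10 genes, 9 keep their sign and Hes1 lies at -0.24, -0.35 or 0.05 depending on the choice.

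Ordered by level per exonic length, Hes1 and Jag2 led in both groups. In the controls the order was Hes1 (36.3 CPM per kb), Jag2 (28.5), Notch3 (8.59), Jag1 (6.97), Lfng (6.55), Notch2 (2.84), Nrarp (2.02), Dll4 (0.47), Notch1 (0.17) and Dll1 (0.03). Of the neighbors in this order, Jag1 and Lfng had overlapping samples. After Folfiri it was Jag2 (41.4), Hes1 (30.7), Jag1 (9.70), Notch2 (4.57), Lfng (3.91), Nrarp (3.02), Notch3 (0.80), Notch1 (0.46), Dll1 (0.36) and Dll4 (0.08), and Notch2 and Lfng overlapped. Notch3 went from the third place to below Nrarp, and Dll4 to the last place.

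**Figure D4:**
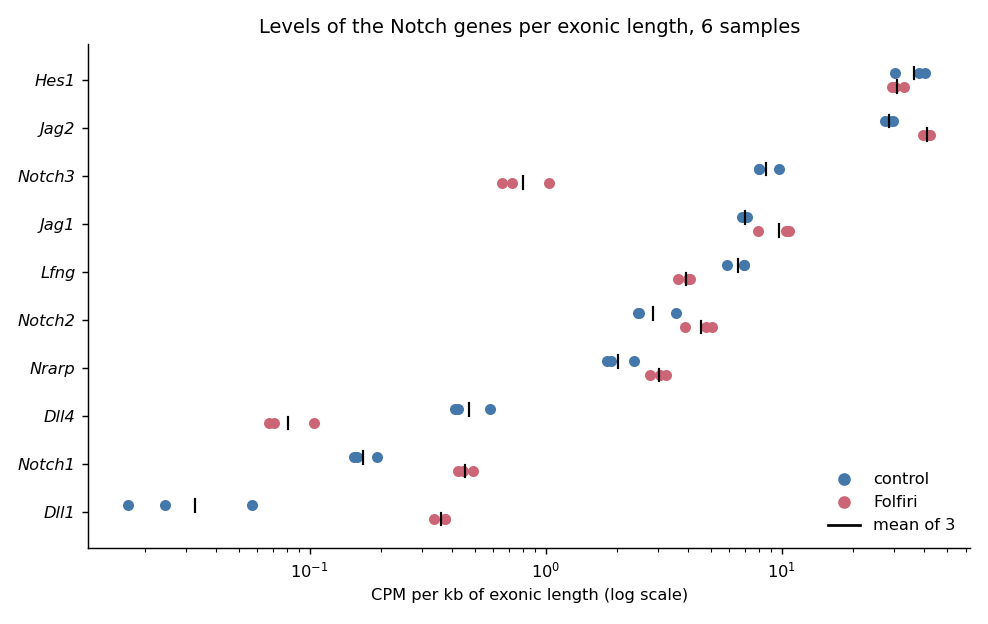
CPM per kb of exonic length (x axis, log scale) of the 10 genes, ordered by their control mean, in the 3 control and 3 Folfiri samples. Points are samples and ticks are means; Notch3 drops from 8.59 to 0.80 and Dll1 rises from 0.03 to 0.36.

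The other genes of the pathway were sorted into 8 lists by role, 63 genes in all, of which 59 were in the table and 48 were tested. Of these, 18 were higher, 19 were lower and 11 did not pass, so that 77.1% passed, close to the 79.1% of all tested genes. With total-count scaling the same number passed, but 23 were higher and 14 lower. The median log2 fold change over the 48 genes was -0.07.

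Of the other receptors and ligands, Notch4 fell from 30.1, 21.2 and 18.8 CPM to 11.4, 9.62 and 9.98 CPM (log2 fold change -1.18, SE 0.16, edgeR adjusted p = 5.92e-05). Notch4 and Dll4 are best known from blood vessels, and of the endothelial markers Cdh5 was at 124, 73.4 and 71.8 CPM in the controls and 71.2, 75.7 and 64.9 CPM after Folfiri. The other endothelial markers were at or near 0: Kdr had no read in any control, Emcn had at most 0.0360 CPM in any sample, and Pecam1 at most 0.640 CPM. Control replicate 1 was the highest sample for Cdh5 as for Notch4 and Dll4. Without that library, Notch4 was still lower, at a log2 fold change of -0.96, and Dll4 at -2.37.

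The non-canonical ligand gene Dlk2 rose from 2, 1 and 2 reads to 83, 107 and 132 reads, and Dll3, a ligand that does not activate receptors on neighboring cells, from 4, 1 and 3 to 16, 15 and 15 reads. Both were separate between the groups and passed in edgeR, with log2 fold changes of 5.54 (adjusted p = 1.86e-07) and 2.10 (adjusted p = 0.000972). From the pooled reads the ratio was 49.6 for Dlk2 (exact 95% counting interval 21.03 to 153.7) and 4.43 for Dll3 (2.07 to 10.9). Dlk1 was not analysed here.

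Of the glycosylation enzymes, 3 of 4 were tested and all 3 passed. Poglut1 and Pofut1, which attach the O-glucose and O-fucose on the receptor, rose (log2 fold changes 1.18 and 0.91), whereas Rfng, a relative of Lfng, fell by 0.37 on the log2 scale. Rfng lost its call with total-count scaling.

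The cleavage machinery was divided, with 3 of 10 genes higher, 5 lower and 2 not past the threshold. Both ADAM proteases fell: Adam10 from 472.1, 495.4 and 518.9 CPM to 243.4, 242.2 and 212 CPM (log2 fold change -1.09, SE 0.08, edgeR adjusted p = 6.23e-07), and Adam17 from 106 ± 1.46 to 49.98 ± 2.70 CPM (mean ± SD, n = 3 each; log2 fold change -1.08, edgeR adjusted p = 2.19e-07). Within γ-secretase, Psen2 rose, with a log2 fold change of 1.25. The accessory subunit gene Psenen fell by 1.15 and Ncstn by 0.36, the latter not past the threshold with total-count scaling.

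Of the 10 trafficking genes tested, 3 were higher and 5 lower. The Deltex genes Dtx3, Dtx4 and Dtx2 rose (log2 fold changes 1.503, 1.01 and 0.41), whereas the endocytic adaptor Numbl, the ubiquitin ligase gene Neurl1b and the receptor-directed ligase gene Itch fell (-1.76, -0.95 and -0.82).

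In the nuclear complex, 4 of 8 genes were higher and 2 lower. Rbpj, the DNA-binding partner of every Notch receptor, fell from 482.8, 553.6 and 562.4 CPM to 225.2, 230.1 and 205 CPM, every control lying far above every treated sample (log2 fold change -1.28, SE 0.09, edgeR adjusted p = 3.09e-07). The coactivator Maml3 fell by 2.09 on the log2 scale (edgeR adjusted p = 1.96e-07). Its relative Maml1 was higher by 0.24 (edgeR adjusted p = 0.0464) with overlapping groups, and Maml2 did not pass. The acetyltransferase genes Kat2a and Ep300 and the Rbpj-binding factor Snw1 rose, with log2 fold changes of 1.66, 0.53 and 0.86. Snw1 shares 2914 exonic bases with Slirp on the opposite strand. Other named pathway genes had smaller overlaps with opposite-strand genes, among them Cir1 (371 bases), Adam17 (311), Tle1 (247), Psenen (230) and Ncstn (195).

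The corepressors, which act with Rbpj or with Hes proteins, were split evenly, with 4 of 10 tested genes higher and 4 lower. Hdac1, Spen and Tle4 rose (log2 fold changes 1.13, 0.99 and 0.68), and Tle1, Tle2 and Cir1 fell (-1.28, -1.10 and -0.61).

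**Figure D5:**
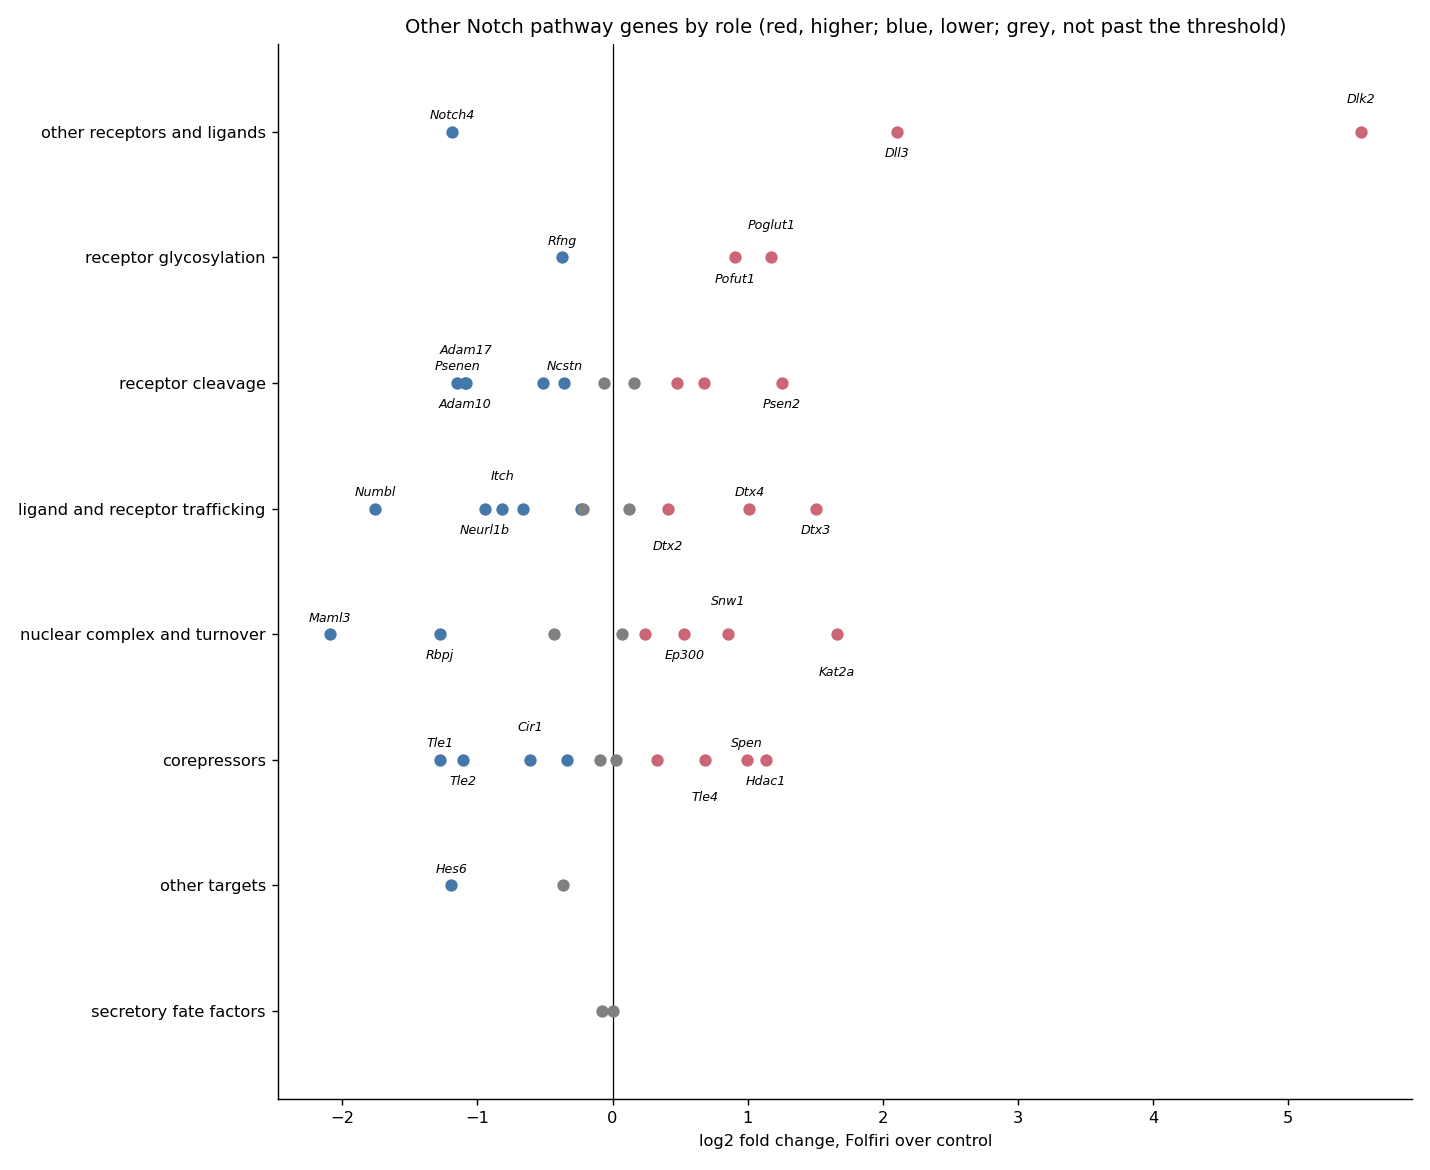
Log2 fold change, Folfiri over control (x axis), of the 48 tested genes of the pathway outside the 10, by role (y axis). Each point is a gene, red where it was higher, blue where it was lower and grey where it did not pass in edgeR; 18 are red and 19 blue, against 23 higher and 14 lower with total-count scaling.

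Other targets and the secretory factors were mostly too scarce to test. Hes6, a relative that counteracts Hes1, fell from 67.5, 78.7 and 72.4 CPM to 32.4, 30.01 and 33.2 CPM (log2 fold change -1.19, SE 0.08, edgeR adjusted p = 3.80e-07). Hey1, a target used as a readout in many tissues, had 9, 11 and 11 reads in the controls and 2, 5 and 7 after treatment. Olfm4, a Notch-responsive stem cell gene, had 2, 4 and 1 reads and then 19, 13 and 6. For Hey1 and Olfm4 the groups did not overlap, but neither had enough reads for the test. Atoh1, the secretory factor that Hes1 represses, had 3, 2 and 1 reads in the controls and 1, 1 and 5 after Folfiri, too few reads for the test, so that a fall or a small change was not detectable at this depth. Of the 8 secretory factors only Sox4 and Foxa3 were tested and neither passed, with log2 fold changes of 0.0068 and -0.08. Hes5 was not analysed here.

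The genes whose pattern over the 6 samples was most like that of Hes1, by the root mean square difference of centered log2 CPM searched over the 9469 genes averaging 10 CPM or more, were Tpd52l1 (0.039), Golga7 (0.039) and Ppox (0.049). For Tpd52l1 the samples were at 11.3, 14.5 and 16.2 CPM in the controls and 12.5, 11.6 and 12.2 CPM after Folfiri, so that control replicate 1 was low for it as for Hes1. The genes most like Notch3 were Hs3st3a1 (0.087), Abhd18 (0.111) and Bnip3 (0.117), with log2 fold changes of -3.58, -3.47 and -3.42. Bnip3 was at 259.5, 258.4 and 269.9 CPM in the controls and 30.4, 21.4 and 21.7 CPM after Folfiri, where replicate 1 was the highest treated sample as it was for Notch3.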

How the data were processed

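RNA was sequenced from 3 control and 3 Folfiri samples of 1 organoid line with a poly(A) kit that does not mark strand. The authors aligned the reads with STAR 2.5.2 (submitters' processing notes) to GRCm38 with a GENCODE annotation, sorted them with Sambamba, and counted them per gene with Rsubread. The deposited values are raw counts, with no normalization. How the authors set strand and treated reads with several matches is not given in the sources used here. Symbols and positions came from an earlier GENCODE release of the same build, which matched 24124 of 24190 identifiers.

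Counts were filtered with filterByExpr, scaled by TMM and tested with edgeR 4.0.16 in R 4.3.3 (quasi-likelihood F test, group only, Benjamini-Hochberg adjustment over 14692 genes, threshold 0.05, two-sided), with DESeq2 1.42.0 as an alternative. The procedure was also run on counts simulated with few genes changed, evenly in both directions. That setting lacks the broad change seen here, so it could not test the scaling. Intervals of pooled read ratios were exact (scipy 1.17.1, conditional binomial, 95%). Tables and plots were made in Python 3.11.15 (pandas 2.3.3, matplotlib 3.10.9). CPM per kb used the union of exons, the likeness search log2 of CPM plus 0.5. The members, the role lists and the marker lists were chosen with earlier results of these data known. From each role list, up to 3 genes per direction were named, those of the largest absolute log2 fold change that passed and whose groups did not overlap, plus Rbpj, Adam10, Adam17, Ncstn, Hes5, Hey1, Atoh1 and Olfm4; marker genes, overlapping genes and other genes outside this rule were named after their values were seen. Some items named by the rule are not reported here. Alternatives covered scaling, filter, test, a replicate block, gene length and each library left out.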

Additional observations from a re-analysis of the deposited data

How the results depend on the processing

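Of the 10 Notch genes, 9 kept their direction and their call under all 13 alternatives, which were 7 changes of scaling, filter, test or block and 6 samples left out in turn. The exception was Hes1. The number of all tested genes past the threshold ranged from 10630 to 12742 (main value 11623), and from 11021 to 12312 with 1 sample left out. Scaling by total counts alone moved the median log2 fold change of all genes from 0.02 to 0.30 and the share of higher genes among those past the threshold from 51.0% to 63.3%, and with it Hes1 turned to 0.047, Tpd52l1 to 0.075 and Golga7 to 0.041, none of them past the threshold (edgeR adjusted p = 0.650, 0.586 and 0.643). Rfng (-0.10, adjusted p = 0.367), Ncstn (-0.08, adjusted p = 0.307) and Ppox (-0.01, adjusted p = 0.913) lost their calls there. The cause was not tested. Hes1 gained a call with no filter on low counts (-0.26, adjusted p = 0.0204) and without control replicate 1, as did Tpd52l1 without that replicate (-0.34, adjusted p = 0.00355). Golga7 kept its call in only 5 of the 13 alternatives: it also lost it with upper-quartile scaling (adjusted p = 0.0923), with a filter of 1 CPM in 3 samples (adjusted p = 0.0510) and without each of the other 5 samples, and Ppox without control replicates 2 and 3 and Folfiri replicate 2.

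The replicate numbers were not taken to pair the samples: deviations of same-numbered samples correlated at 0.03, -0.12 and 0.04, and not every sample correlated best with its own number. With the replicate block 11499 genes passed, and Hes1 stood at -0.23 (edgeR adjusted p = 0.0658).

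With the longest transcript as the length, Notch1 made up 2.14% of the receptors in the controls and 11.1% after Folfiri, Notch2 75.8% after Folfiri, Jag1 15.5% and 15.02% of the ligands, and Jag2 83.3% and 84.2%. With Notch4 counted among the receptors, an alternative chosen after seeing the data, the shares were 1.17% and 6.44% for Notch1, 19.4% and 64.2% for Notch2, and 59.6% and 11.2% for Notch3, beside 19.8% and 18.1% for Notch4. Depth limited Dll1 in the controls, Hey1, Olfm4 and Atoh1.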

Other observations

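Markers of the secretory and stem cell states that Notch is known to separate were divided too. Of 7 goblet cell markers, 4 were tested: Agr2 fell from 54.4 to 6.79 CPM (log2 fold change -3.00), Fcgbp from 36.4 to 7.97 CPM (-2.19) and Zg16 from 0.64 to 0.11 CPM (-2.398), whereas Clca1 rose from 2.04 to 10.6 CPM (2.402). Of the Paneth cell markers, Mmp7 and Itln1 fell (-0.69 and -0.72), Defa24 and Defa30 had at most 1 read in any sample, and Lyz1 was not analysed here. The enteroendocrine markers summed to at most 0.94 CPM in any sample and the enterocyte markers to at most 3.70 CPM. Of their tested markers, all scarce, Tac1 and Fabp2 rose (1.73 and 1.47) and Krt20 did not pass (-0.13). The tuft cell sum, 77.9 to 97.0 CPM over all samples, was almost wholly Avil. Avil fell (-0.22), whereas the scarce Pou2f3 rose (1.07). Of the 5 stem cell markers, Lgr5 fell from 20.9 to 3.64 CPM (-2.52), Smoc2 from 16.5 to 3.01 CPM (-2.46), and Ascl2 and Tnfrsf19 less (-0.59 and -0.45), whereas Axin2 rose from 251.2 to 389.8 CPM (0.63). Of the 5 proliferation markers, Mki67 (-1.58), Top2a (-1.65) and Ccnb1 (-0.47) fell, Mcm2 rose (1.31) and Pcna did not pass (-0.07). All these calls were past the threshold in edgeR, with the exception of Pcna and Krt20. Their part in the changes of the Notch genes was not tested.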
